A study of Sus scrofa with 12 samples.

Results

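The 8 genes described here encode enzymes and a regulator at the points where an embryo makes fatty acids and cholesterol or burns fatty acids for energy. They are ACLY, MID1IP1 and SCD of fatty acid synthesis, ACSL1 of fatty acid activation, ACADVL and ACADS of fatty acid oxidation, and HMGCS1 and SQLE of cholesterol synthesis. They were picked by name from the 31781 genes of the deposited table, with their levels in these same groups already known. Their differences between groups are therefore given as description, with no test. All 8 passed the filter on low values that left 9411 genes, which asked for 3 or more libraries at an FPKM of 1 or above. FPKM counts sequenced fragments after scaling to gene length and to the total mapped in a library.

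RNA was measured in 11 libraries of pig blastocysts made by parthenogenetic activation, in which an egg develops without sperm, so that no group holds fertilised embryos. The libraries were made with Smart-Seq2, which amplifies cDNA from very small inputs. Fresh control blastocysts, which were not frozen, gave 3 libraries (A1 to A3). The vitrification group gave 2 (B1 and B2), vitrification I 3 (C1 to C3) and vitrification II 3 (H1 to H3), and a further vitrification sample was not analysed here. Vitrification is cooling fast enough to form a glass in place of ice. Liquid helium appears in the title of the series, but the labels neither assign it to a group nor say how the 3 procedures differed. The labels give blastocyst as the source, whereas the protocol speaks of sorted single cells, so the spread between libraries may be that between cells, between embryos or technical. Age of the embryos and the source of the eggs are not given in the sources used here.

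Fatty acid synthesis starts when ATP-citrate lyase splits citrate into acetyl-CoA in the cytosol, goes on through acetyl-CoA carboxylase and fatty acid synthase, and ends with elongases and desaturases. Fatty acids become usable only once an acyl-CoA synthetase has joined them to coenzyme A. The carnitine shuttle then carries long chains into the mitochondrion, where acyl-CoA dehydrogenases open each round of beta-oxidation. Cholesterol is built from the same acetyl-CoA by way of mevalonate and squalene. Pig oocytes and early embryos are known for their large stores of lipid droplets, which have long been linked to their poor tolerance of cooling.

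The summed FPKM of a library lay between 439650 and 591894, and without counts in the table the depth of sequencing is unknown. The 13 mitochondrially encoded genes held 37.6% to 43.9% of it in the fresh controls and 38.7% to 51.8% in the vitrification group, compared with 43.8% to 64.3% in vitrification I and 16.9% to 22.1% in vitrification II. Genes above 0 numbered 15383 to 16046, 17726 to 18527, 11550 to 14039 and 15415 to 16204 in the same order. The 8 trophectoderm markers, which mark the outer layer of the blastocyst, were all detected. Their summed FPKM, mostly KRT8 and KRT18, was 10259 to 15267 in the fresh controls and 6410 to 16821 in the vitrification group, but 2307 to 5588 in vitrification I and 13372 to 21737 in vitrification II. In vitrification II KRT8 lay above the fresh controls (10563 to 18589 against 6343 to 10329). KRT18 lay below them there (2197 to 2968 against 3846 to 4806). The 3 of 5 inner cell mass markers with a symbol in the table summed to 8.15 to 12.6, 8.15 to 23.5, 1.37 to 6.13 and 37.2 to 89.2 in the same order. In vitrification II most of this was LIN28A (81.6, 45.7 and 24.5). There KLF4 also lay above the fresh controls, whereas NANOG overlapped them. In vitrification I LIN28A lay below the fresh controls, and KLF4 and NANOG overlapped them. The 3 of 4 hypoblast markers with a symbol summed to 10.6 to 19.3, 18.3 to 45.1, 16.4 to 23.3 and 19.0 to 26.5, mostly GATA6. Markers of other cells were at 0 in every library for 2 of 4 of cumulus cells (HAS2, PTX3), 3 of 5 of fat cells (ADIPOQ, LEP, FABP4), 1 of 4 of leukocytes (PTPRC) and 2 of 6 of the oocyte (ZP3, NLRP5), but not for the rest. Summed over each list, the cumulus markers reached at most 0.205. The oocyte markers summed to 6.26 to 7.67, 5.38 to 5.96, 3.85 to 6.54 and 3.98 to 13.4 in the same order, mostly GDF9 (3.29 to 8.40 over all libraries). The fat cell markers summed to 0 to 23.6, 0.609 to 4.13, 0 to 1.36 and 4.91 to 53.8, nearly all from CIDEC, a lipid droplet protein, with 23.4 in A1 and 53.8 in H2. The leukocyte markers summed to 0.758 to 12.7, 0.728 to 2.77, 0.0211 to 1.48 and 0.717 to 2.83, the highest in A1 and mostly LYZ there. Fewer cells of a type and less RNA per cell cannot be told apart in such libraries, and the part of these shifts in the values below was not tested.

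Differences between groups are differences of mean log2(FPKM + 1) ± SE, and are given relative to the median difference of all 9411 genes. That median was 0.19 for vitrification, -0.06 for vitrification I and 0.62 for vitrification II against fresh control, and 0.68 for vitrification II against vitrification I. The fitted differences, on which calls of other genes rest, are the printed values plus that shift.

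ACLY (ENSSSCG00000017421), the citrate lyase that supplies cytosolic acetyl-CoA, had an FPKM of 19.2, 12.6 and 26.5 in the fresh control libraries and of 28.5 and 28.8 in vitrification. It had 22.8, 89.6 and 35.0 in vitrification I and 80.3, 137 and 179 in vitrification II. Vitrification II held the highest level, 132 ± 49.5 (SD, n = 3), and its libraries lay above every fresh control library, although replicate 1 lay below replicate 2 of vitrification I. The difference from fresh control was 2.07 ± 0.47 in vitrification II, 1.18 ± 0.47 in vitrification I, whose libraries overlapped fresh control, and 0.41 ± 0.53 in vitrification.

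MID1IP1 (ENSSSCG00000025447), a small protein that promotes polymerisation and activity of acetyl-CoA carboxylase, had 1.52, 6.25 and 4.91 in fresh control and 5.63 and 5.22 in vitrification. It had 153, 79.7 and 53.1 in vitrification I and 14.3, 9.13 and 24.3 in vitrification II. The 3 vitrification I libraries stood above all others, with a mean of 95.3 ± 51.8 (SD, n = 3) against 4.23 ± 2.44 in fresh control. In rank this moved the gene from above 55.3% of the genes tested in fresh control to above 94.6% in vitrification I. The difference from fresh control was 4.27 ± 0.49 in vitrification I, the largest of the 8 genes in any comparison, and 1.11 ± 0.49 in vitrification II. Vitrification and fresh control overlapped. THRSP, its paralog with a like role, had no such pattern, with an FPKM of 4.02 to 9.43 over all 11 libraries.

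SCD (ENSSSCG00000010554), the desaturase that makes oleate from stearate, had 24.5, 23.7 and 30.4 in fresh control and 101 and 131 in vitrification. It had 136, 150.0 and 307 in vitrification I and 32.0, 67.7 and 117 in vitrification II. All 8 vitrified libraries lay above the fresh controls, H1 only narrowly. The group means ran from 26.2 ± 3.65 in fresh control through 72.3 ± 42.9 in vitrification II and 116 ± 20.9 (n = 2) in vitrification to 198 ± 95.2 in vitrification I, and the libraries of vitrification and vitrification II overlapped. The difference from fresh control was 2.84 ± 0.45 in vitrification I, 1.92 ± 0.50 in vitrification and 0.63 ± 0.45 in vitrification II. Of the 8 genes, SCD had the largest difference in the vitrification group.

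The central enzymes between ACLY and SCD were barely detected. ACACA, the acetyl-CoA carboxylase that MID1IP1 acts on, and FASN, the fatty acid synthase, both lay below the filter, with highest values of 1.45 and 1.23, each in H3. SREBF1, the transcription factor best known for driving fatty acid synthesis genes, reached at most 0.536. The highest values of MID1IP1 and SCD were 153 and 307. All these levels are scaled to gene length, but how evenly transcripts of unlike length were captured in these libraries is not known. ELOVL6, which extends palmitate to stearate, the substrate of SCD, had a mean of 2.50 ± 1.84 in the fresh controls and 11.4 ± 5.06 in vitrification II, with 4.03 ± 0.582 in the vitrification group and 4.42 ± 2.60 in vitrification I between them.

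ACSL1 (ENSSSCG00000015784), a long-chain acyl-CoA synthetase that prepares fatty acids for oxidation or storage, had 1.65, 1.04 and 2.47 in fresh control and 5.29 and 8.90 in vitrification. It had 2.86, 3.89 and 1.41 in vitrification I and 36.2, 20.3 and 28.6 in vitrification II. Vitrification II stood apart from every other group, with a mean of 28.4 ± 7.97 against 1.72 ± 0.718 in fresh control, and vitrification I overlapped fresh control. The difference was 2.81 ± 0.40 in vitrification II, 1.38 ± 0.44 in vitrification and 0.49 ± 0.40 in vitrification I. This order is unlike that of MID1IP1 and SCD, which were highest in vitrification I. Of the other synthetases, ACSL3 had 1.02 to 2.72 in fresh control and 5.59 to 7.99 in vitrification II, ACSL4 lay below the filter, and ACSL6 was lower in vitrification II (14.3 to 24.7) than in vitrification I (47.0 to 76.1).

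ACADVL (ENSSSCG00000017947), the dehydrogenase that opens oxidation of very long chains at the inner mitochondrial membrane, had 58.2, 53.7 and 62.6 in fresh control and 42.1 and 32.8 in vitrification. It had 11.1, 14.2 and 3.91 in vitrification I and 73.0, 69.4 and 39.5 in vitrification II. Vitrification I lay below every other library, at 9.72 ± 5.26 against 58.2 ± 4.45 in fresh control. The difference was -2.55 ± 0.42 in vitrification I and -0.82 ± 0.47 in vitrification, whose libraries also lay below fresh control. Vitrification II overlapped fresh control, with a fitted difference of 0.01, which is -0.61 ± 0.42 once the shift of all genes is taken off.

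ACADS (ENSSSCG00000009916), which acts on the short chains left at the end of oxidation, had 5.79, 9.27 and 8.87 in fresh control and 8.48 and 5.13 in vitrification. It had 2.82, 0.630 and 0.800 in vitrification I and 8.61, 6.83 and 6.75 in vitrification II. Again vitrification I alone lay apart, below all other libraries, while the remaining groups overlapped one another. The difference from fresh control was -1.92 ± 0.40 in vitrification I, -0.40 ± 0.44 in vitrification and -0.70 ± 0.40 in vitrification II. In vitrification II the fitted difference was -0.08.

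HMGCS1 (ENSSSCG00000016872), which makes the HMG-CoA that enters the mevalonate pathway, had 6.23, 6.78 and 13.6 in fresh control and 17.7 and 15.3 in vitrification. It had 25.0, 74.6 and 29.5 in vitrification I and 42.6, 32.0 and 134 in vitrification II. Every vitrified library lay above the fresh controls. The difference was 2.12 ± 0.53 in vitrification I and 2.01 ± 0.53 in vitrification II, groups that overlapped, and 0.71 ± 0.59 in vitrification.

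SQLE (ENSSSCG00000005970), the squalene epoxidase that commits squalene to sterols, had 21.4, 35.0 and 56.8 in fresh control and 67.7 and 104 in vitrification. It had 135, 172 and 189 in vitrification I and 53.0, 88.6 and 130.3 in vitrification II. Vitrification I was highest and did not overlap its neighbour vitrification II, which overlapped both vitrification and fresh control. The difference from fresh control was 2.26 ± 0.42 in vitrification I, 1.05 ± 0.47 in vitrification and 0.63 ± 0.42 in vitrification II.

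**Figure D1:**
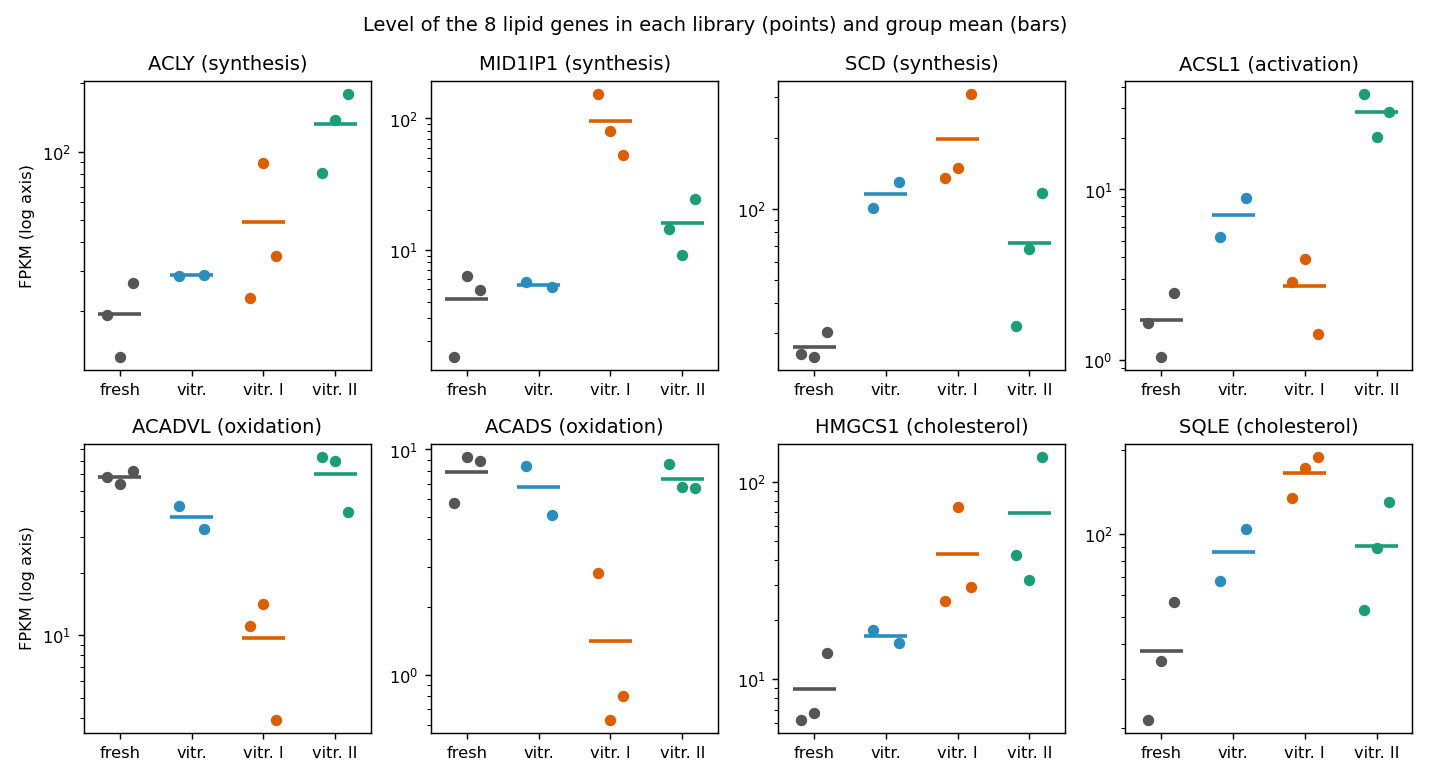
FPKM of the 8 genes in each of the 11 libraries (points; log axis, ranges differ between panels) with the mean of each group (bars), for fresh control, vitrification (vitr.), vitrification I and vitrification II. MID1IP1, SCD and SQLE are highest and ACADVL and ACADS lowest in vitrification I, while ACLY and ACSL1 have their highest means in vitrification II.

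The 8 genes fell into a pair of patterns over the groups. SCD, MID1IP1 and SQLE had their highest mean in vitrification I, where ACADVL and ACADS had their lowest. ACSL1, ACLY and HMGCS1 had their highest mean in vitrification II, where ACADVL and ACADS were near their fresh control levels. Across the 11 libraries Pearson's r of log2(FPKM + 1) was 0.92 between SCD and SQLE, 0.89 between ACADVL and ACADS, 0.88 between ACLY and HMGCS1 and 0.81 between ACLY and ACSL1. It was -0.82 between SCD and ACADVL and -0.76 between MID1IP1 and ACADVL, but 0.08 between ACLY and ACADVL. These are descriptions over libraries that share the 4 groups and the scaling of each library.

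In a ratio of FPKM taken within a library its scaling cancels, so the ratio can be compared between libraries. Whether it lies above or below 1 is not read, since unlike transcripts may be captured unevenly. SCD per ACADVL, as a ratio of FPKM, was 0.42, 0.44 and 0.49 in fresh control and 2.41 and 4.00 in vitrification. It was 12.3, 10.6 and 78.7 in vitrification I and 0.44, 0.98 and 2.97 in vitrification II. Vitrification I stood above all other libraries, replicate 3 far above the other two, and vitrification II reached from the fresh control range into that of vitrification. ACLY per ACADVL ran from 0.23 to 0.42 in the fresh controls and from 0.68 to 0.88 in the vitrification group, and reached 2.05 to 8.95 in vitrification I and 1.10 to 4.53 in vitrification II, so that every vitrified library lay above every fresh one. MID1IP1 per ACADS ran from 0.26 to 0.67, 0.66 to 1.02, 54.3 to 126 and 1.34 to 3.60 in the same order.

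The mean log2(FPKM + 1) of ACLY, MID1IP1 and SCD minus that of ACADVL and ACADS was -0.88, -0.82 and -0.54 in fresh control and 0.43 and 1.01 in vitrification. It was 3.55, 4.38 and 4.83 in vitrification I and 0.37, 0.96 and 2.2 in vitrification II. The mean of the 2 oxidation genes lay above that of the 3 synthesis genes in the fresh controls, and below it in all 8 vitrified libraries. The group means were -0.75 ± 0.18, 0.72 ± 0.41, 4.25 ± 0.65 and 1.18 ± 0.93 (SD). In vitrification I both sides moved, with the synthesis mean at 6.47 against 3.77 in fresh control and the oxidation mean at 2.22 against 4.51. In vitrification II the oxidation mean was 4.48, and the synthesis mean was 5.66. Where 0 falls depends on the FPKM of unlike genes, so the sign is not read as a balance of the pathways. At low levels, such as those of ACADS in vitrification I, the 1 added to FPKM keeps the scaling from cancelling fully.

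The same difference over the other genes of the fatty acid synthesis and oxidation lists, with those 5 genes left out, moved far less. Taken over 17 synthesis and 18 oxidation genes, it was -0.99, -1.29 and -1.51 in fresh control and -0.70 and -0.86 in vitrification. It was -0.87, -0.74 and -0.27 in vitrification I and -1.25, -1.46 and -0.84 in vitrification II. The difference stayed below 0 in all 11 libraries, with group means of -1.26 ± 0.26, -0.78 ± 0.11, -0.63 ± 0.31 and -1.18 ± 0.32 (SD). The change of sign described for ACLY, MID1IP1, SCD, ACADVL and ACADS was therefore not seen in the mean of the remaining genes of their pathways. Those 5 genes were chosen with their levels in these groups known, so their contrast with the rest is a description and no test.

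**Figure D2:**
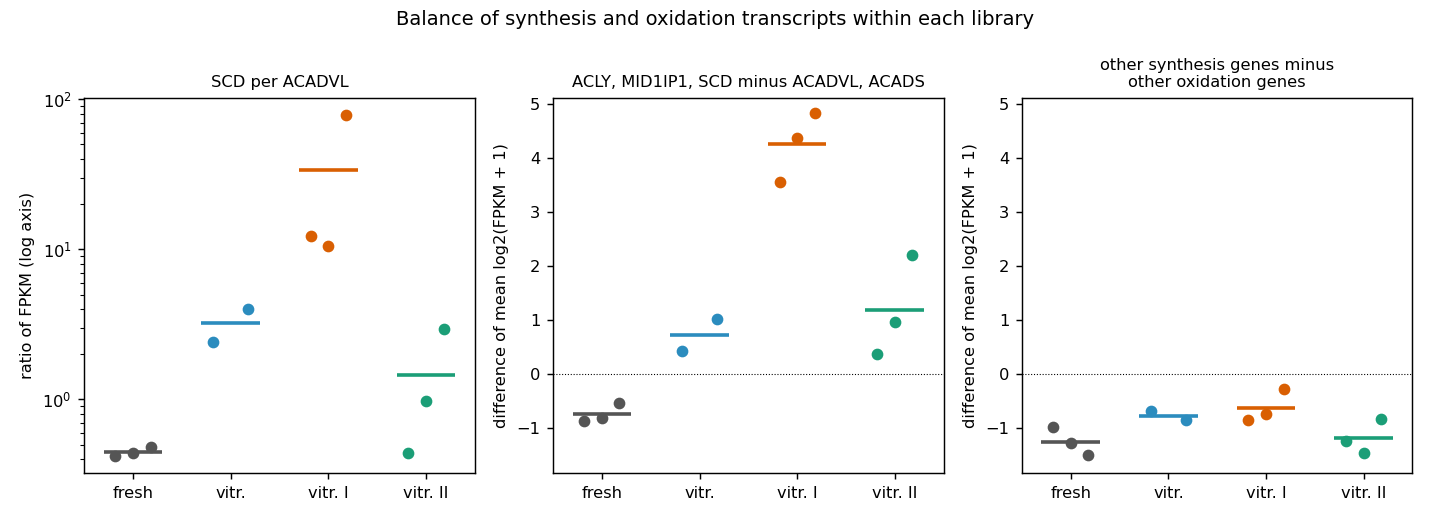
Left, ratio of SCD to ACADVL FPKM per library (log axis). Middle, mean log2(FPKM + 1) of ACLY, MID1IP1 and SCD minus that of ACADVL and ACADS. Right, the same difference for the other 17 synthesis and 18 oxidation genes, on the axis of the middle panel. Points are libraries and bars are group means. The 5 named genes separate vitrification I (3.55 to 4.83) from the fresh controls (-0.88 to -0.54), whereas the other genes stay below 0 in every library. The 5 were chosen with their levels in these groups known, so this contrast is a description only.

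The rest of each pathway was read from lists of genes tested with limma over all 9411 genes, a gene being called at a Benjamini-Hochberg adjusted p under 0.05. Of all genes tested, 18.6% were called in vitrification I against fresh control, 8.85% higher and 9.77% lower. Vitrification II against fresh control had 25.7% called (24.6% higher, 1.09% lower), and vitrification II against vitrification I had 38.4% (34.7% higher, 3.75% lower). Vitrification against fresh control had 1.37% (1.25% higher, 0.117% lower). The split depended on scaling. In vitrification I 47.5% of called genes were higher, and 73.0% after scaling to the non-mitochondrial total. In vitrification II 95.7% were higher against fresh control and 90.2% against vitrification I, and 57.2% and 48.2% after quantile normalization. Against vitrification I the non-mitochondrial total gave 68.6%, and for the vitrification group the share was 91.5%, or 70.4% after quantile normalization. The 3 comparisons with fresh control share its libraries. Counts of a list that include any of the 8 genes hold genes chosen on these contrasts, so nothing is read from those genes. The count of called genes without them is given beside the main count, while counts under alternatives include them. Each alternative has its own background. With the non-mitochondrial total 1361 of all 9424 genes were higher and 503 lower in vitrification I. For vitrification II they were 1191 and 115 against fresh control, and 1552 and 711 against vitrification I. After quantile normalization those were 387 and 289, and 1276 and 1373, of 9411 genes. Among the vitrification I libraries C2 had a mitochondrial share of 43.8% and 14039 genes above 0, whereas C1 and C3 had 58.9% and 64.3% and 12340 and 11550 genes. Values "with C2 alone" come from an alternative added after seeing the data, in which C2 stood for its group and was assumed to vary like the other groups.

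In vitrification I, fatty acid synthesis genes were called about as often as all genes. Of 20 synthesis genes past the filter 3 were called higher and 1 lower, 20.0% beside the 18.6% of all genes, and without ACLY, MID1IP1 and SCD 1 of 17 rose and 1 fell. The median of those 17 lay 0.45 above that of all genes. ELOVL5, an elongase of polyunsaturated chains, rose by 3.26 ± 0.74 (limma adjusted p = 0.00965, 0.107 with no filter). Its FPKM was 506 and 510.3 in replicates 1 and 3 but 45.8 in replicate 2, against 38.4, 28.2 and 12.6 in fresh control, and with C2 alone the adjusted p was 0.498. SLC25A1, which exports the citrate that ACLY splits, fell by 1.88 ± 0.44 (limma adjusted p = 0.00826, 0.052 with no filter and 0.331 with C2 alone). The number lower was 2 without C2, and with the non-mitochondrial total 7 of the 20 were higher, beside 1361 of all 9424 genes. Of 13 activation and uptake genes limma called 0, with 5 at an unadjusted p under 0.05, 3 higher and 2 lower. Without ACSL1 5 of 12 were at that level, as were 3136 of all 9411 genes. Without A1 it called 1 higher and 1 lower, without C3 1 higher and without C2 1 lower, and with the non-mitochondrial total 3 of 12 higher.

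In vitrification I the oxidation genes called lower, beside ACADVL and ACADS, were 2 of the carnitine shuttle and 1 further dehydrogenase. Of 20 oxidation genes 5 were called lower, 25.0% beside the 9.77% of all genes, and without ACADVL and ACADS 3 of 18. Limma called 0 higher, and none had an unadjusted p under 0.05 in that direction. The median of those 18 lay at -0.06 from that of all genes. SLC25A20, the carnitine carrier of the inner membrane, fell by 1.96 ± 0.43 (limma adjusted p = 0.0057, 0.257 with C2 alone). Its FPKM was 13.3, 9.73 and 15.5 in fresh control and 1.29, 5.49 and 1.52 in vitrification I. CPT2, which releases the acyl-CoA inside the mitochondrion, fell by 1.36 ± 0.43 (limma adjusted p = 0.0328). That call ended without A2, A3, C1 or C2 (0.0878, 0.146, 0.126 and 0.0568), with no filter (0.115), with the non-mitochondrial total (0.113) and in a fit of these groups alone (0.0557), and with C2 alone it had 0.200. The third was ACAD9, a relative of ACADVL that also serves assembly of respiratory complex I, at -1.01 ± 0.36 (limma adjusted p = 0.047), a call kept in 5 of 18 alternatives and lost without A1, A2, A3, C1, C3, H1, H2 or H3 (0.0565 to 0.152). The vitrification I libraries also had the lowest summed trophectoderm markers (2307 to 5588), a sum mostly of KRT8 and KRT18. TEAD4 and ELF3 also lay below the fresh controls, whereas CDX2, GATA2, GATA3 and TFAP2C overlapped them. The part of that shift was not tested.

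Genes of the middle of the oxidation spiral were not called in vitrification I against fresh control. ACADM, the medium-chain dehydrogenase, differed by 0.24 ± 0.56 in vitrification I (limma adjusted p = 0.860), and HADHA, of the trifunctional protein, by -0.05 ± 0.40 (0.867). ETFA, which takes electrons from all these dehydrogenases, differed by 0.58 ± 0.38 (0.366), with an FPKM of 466, 434 and 196. CPT1A, the gatekeeper of the shuttle, was at 0.268 ± 0.0298 in fresh control, 1.37 ± 0.807 in the vitrification group, 0.518 ± 0.621 in vitrification I, and had 7.12, 1.52 and 1.85 in vitrification II. The number of oxidation genes called lower was 3 without A2, A3 or C1, 3 with the non-mitochondrial total, with no filter or in a fit of these groups alone, and 2 with C2 alone. In the peroxisome, a second site of oxidation, 3 of 11 genes fell and 1 rose, 27.3% and 9.09% beside 9.77% lower and 8.85% higher of all genes. They included CRAT, which trades acyl groups between carnitine and coenzyme A (-2.19 ± 0.48, limma adjusted p = 0.0056), and the thioesterase ACOT8 (-2.34 ± 0.56, limma adjusted p = 0.00973). With C2 alone none of the 11 was called lower, with adjusted p = 0.256 for CRAT and 0.373 for ACOT8. With no filter ACOT8 had 0.0836. The 1 that rose, the transporter ABCD3, was not called in 11 of 18 alternatives, among them the fits without A1, A2, A3, C1, C3, H1 or H2.

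Cholesterol synthesis genes were called in both directions in vitrification I, LBR among those higher and MVD among those lower. Of 20 genes 6 were called higher and 2 lower, 30.0% and 10.0% against 8.85% and 9.77% of all genes, and 4 and 2 of 18 without HMGCS1 and SQLE. The median of those 18 lay 0.70 above that of all genes. LBR, a sterol reductase of the nuclear envelope, rose by 1.81 ± 0.40 (limma adjusted p = 0.00824, 0.148 with C2 alone). MVD, which makes isopentenyl pyrophosphate, fell by 2.10 ± 0.51 (limma adjusted p = 0.0102), with 2.24, 9.03 and 2.33 in vitrification I and 12.2, 21.8 and 31.0 in fresh control. Its call ended with no filter (0.0766) and with C2 alone (0.368). In all 5 cholesterol genes were called without A2. The number lower was 1 without A2, A3, C1 or C3, and 5 without C2.

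**Figure D3:**
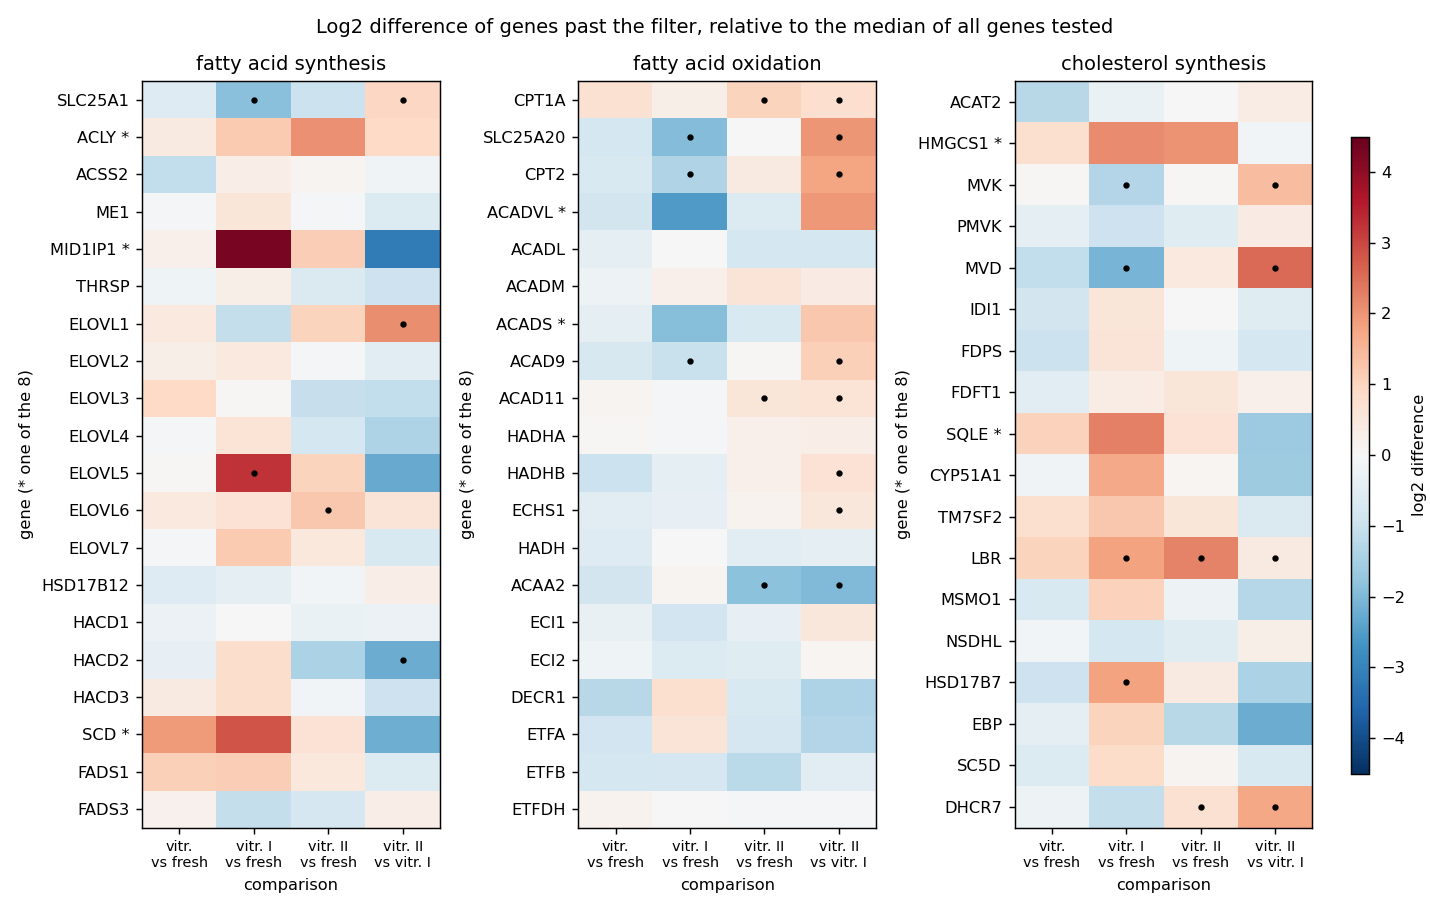
Log2 difference of fatty acid synthesis, fatty acid oxidation and cholesterol synthesis genes past the filter, leaving out genes not reported here, relative to the median of all genes, in the 4 comparisons (colour scale). Genes run from the first to the last step, an asterisk marks the 8 genes, and black dots mark other genes called by limma at an adjusted p under 0.05. In vitrification I against fresh control the oxidation column is lower at SLC25A20, CPT2, ACADVL and ACADS and near 0 at ACADM and HADHA.

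Of 23 triglyceride and droplet genes 1 was called higher and 3 lower in vitrification I, 17.4% beside the 18.6% of all genes. PLIN2, which coats lipid droplets and was the most abundant perilipin here, fell by 1.88 ± 0.31 (limma adjusted p = 0.00116). Its FPKM was 732, 950.1 and 794 in the fresh controls and 380.0 and 450 in the vitrification group. It was 199.9, 214 and 223 in vitrification I but 626, 498 and 354 in vitrification II. The 3 vitrification I libraries lay close together and below all others, and every vitrified library lay below the fresh controls. The call held under all 18 alternatives. DGAT1, which makes triglyceride, fell by 1.38 ± 0.35 (limma adjusted p = 0.0116) and GPAM, the first acyltransferase of glycerolipid synthesis, rose by 1.71 ± 0.40 (limma adjusted p = 0.0121). Without A2 these had 0.0639 and 0.057 and the list had 0 higher and 1 lower, and with C2 alone they had 0.263 and 0.248. The number higher was 2 without A1 or C2. Among 17 regulators of lipid genes 1 was called higher, INSIG2, and 2 lower, the sterol receptor NR1H2 and MLX. These were 5.88% and 11.8% beside 8.85% and 9.77% of all genes. Without A2, A3 or C1 none of these 3 was called, without A1 neither NR1H2 nor MLX, and without C3 neither INSIG2 nor NR1H2.

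In vitrification II, where ACADVL and ACADS overlapped fresh control, LBR and regulators of sterol supply were higher and few fatty acid synthesis or oxidation genes were called. The mitochondrial share was lowest in these libraries (16.9% to 22.1%), and its part was not tested. Fatty acid synthesis had 3 of 20 genes called higher against fresh control, 15.0% beside 24.6% of all genes, and without ACLY, MID1IP1 and SCD 1 of 17, ELOVL6 (1.23 ± 0.49, limma adjusted p = 0.0143). The ELOVL6 call ended without A2 or H3 (0.0699 and 0.064), with no filter (0.0797) and after quantile normalization (0.228). The synthesis count was 5 without C1 or H1, and 1 without H3. Oxidation had 2 of 20 higher and 1 lower (0 in all without A2, 2 without A3, H2 or H3, and 1 without H1). These were 10.0% and 5.00% beside 24.6% and 1.09% of all genes, and 2 and 1 of 18 without ACADVL and ACADS. The higher genes, CPT1A and ACAD11, a dehydrogenase of long chains, reached an FPKM of 1 in fewer than 3 libraries outside vitrification II, so they passed the filter only through the group where they are high, and their calls are not read. ACAD11 had 2.94, 2.56 and 3.39 in vitrification II against 0.627, 0.640 and 1.04 in fresh control. The lower gene was ACAA2, the thiolase of the last oxidation step, at -1.86 ± 0.40 (limma adjusted p = 0.0345), and leaving out A2, A3, H1, H2 or H3 raised this to between 0.0556 and 0.169, and no filter to 0.0941. In activation and uptake 3 of 13 were called higher, 23.1% beside 24.6% of all genes, and without ACSL1 2 of 12, ACSL3 and FABP5. ACSL3 was not called without A2 (limma adjusted p = 0.0642) or after quantile normalization (0.261). The FABP5 call (limma adjusted p = 0.0368) was lost in 8 of 17 alternatives, among them the fits without A2, A3 or H1 (0.158, 0.125 and 0.150). The activation count was 1 without A2.

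Of 20 cholesterol genes 6 were called higher in vitrification II and 0 lower, 30.0% beside 24.6% of all genes. At an unadjusted p under 0.05 there were 7 higher and 0 lower of the 20, and 3733 of all 9411 genes in either direction. Without HMGCS1 and SQLE 4 of 18 were called higher. The count of 6 became 3 without A1, A2, H2 or H3, and 3 with the non-mitochondrial total or quantile normalization. LBR rose by 2.22 ± 0.40 (limma adjusted p = 0.000452). Regulators of sterol supply were among the called genes. STARD4, a carrier of cholesterol between membranes, rose by 2.35 ± 0.56 (limma adjusted p = 0.00233). INSIG1, which holds sterol sensing in the endoplasmic reticulum, rose by 2.17 ± 0.53 (limma adjusted p = 0.00237, 0.0519 after quantile normalization), to 18.9, 62.0 and 134. LBR and STARD4 were called under all 17 alternatives. SREBF2, the main activator of sterol genes, rose by 0.92 ± 0.48 (limma adjusted p = 0.0301). That call ended without A1, A2, A3, H1 or H3 (0.0515 to 0.140), with no filter (0.127), with the non-mitochondrial total (0.0685) and after quantile normalization (0.414). The regulator list as a whole had 7 of 17 higher, 41.2% beside 24.6% of all genes, 1 of them, PPARD, past the filter only through vitrification II. The count was 2 without A2, 3 without A3 or H3, 4 without H1, 2 with the non-mitochondrial total and 1 after quantile normalization.

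LIPE, the hormone-sensitive lipase of triglyceride breakdown, lay below an FPKM of 1 in every library outside vitrification II. It had 0.763, 0.615 and 0.361 in fresh control and 4.98, 8.10 and 9.10 in vitrification II. MGLL, which cleaves the last fatty acid from glycerol, also passed the filter only through vitrification II, so neither call is read. GPAT4, an acyltransferase of the endoplasmic reticulum, rose by 1.17 ± 0.38 (limma adjusted p = 0.00451, 0.164 after quantile normalization). CRAT was the 1 of 11 peroxisomal genes called (1.09 ± 0.48, limma adjusted p = 0.0181), though not without A1 (0.0543) or H3 (0.0667), with no filter (0.0893) or after quantile normalization (0.295). The share higher was 9.09% beside 24.6% of all genes. In all 9 of 23 droplet genes were called higher, 39.1% beside 24.6% of all genes, 3 of them (LIPE, MGLL and AGPAT1) genes that passed the filter only through vitrification II. The count was 3 without A2 or H3, 4 without A3, 4 with the non-mitochondrial total and 1 after quantile normalization.

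Set against vitrification I, vitrification II had higher transcripts of CPT2 and SLC25A20 of the carnitine shuttle and of CRAT of the peroxisomal list. CPT2 rose by 1.77 ± 0.43 (limma adjusted p = 0.000667), SLC25A20 by 1.97 ± 0.43 (limma adjusted p = 0.000387) and CRAT by 3.28 ± 0.48 (limma adjusted p = 6.16e-05), each under all 18 alternatives. Vitrification II libraries held 12.9, 10.0 and 8.95 of CPT2 against 0.438, 1.04 and 2.18, and 23.7, 20.5 and 30.7 of CRAT against 0.306, 2.15 and 0.0715. For both genes the groups did not overlap. Of 20 oxidation genes 9 were called higher and 1 lower, 45.0% beside 34.7% of all genes, and without ACADVL and ACADS 7 and 1 of 18. CPT1A and ACAD11, which are in both counts of genes higher, passed the filter only through vitrification II, so their calls are not read. Setting them aside, 7 genes were higher with ACADVL and ACADS still counted. After quantile normalization 3 were higher and 3 lower, and with C2 alone 4 and 0. The 1 lower, ACAA2, was not called without C1 or H1 or H3 (limma adjusted p = 0.0804, 0.0569 and 0.0664), and the number lower was 2 without C3.

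Synthesis genes were called in both directions between these groups. Of 20, 3 were called higher and 3 lower (1 and 6 after quantile normalization, 1 and 3 with the non-mitochondrial total). Each is 15.0%, beside 34.7% higher and 3.75% lower of all genes, and without ACLY, MID1IP1 and SCD they were 2 and 1 of 17. The median of those 17 lay at -0.60 from that of all genes. HACD2, a dehydratase of the elongation cycle, fell by 2.22 ± 0.34 (limma adjusted p = 0.00329, 0.130 with C2 alone). ELOVL1, an elongase of saturated chains, rose by 2.09 ± 0.68 (limma adjusted p = 0.00577, 0.071 with no filter and 0.142 with C2 alone), with 0.728 in C1 and 19.0 and 11.9 in the other libraries of that group. SLC25A1 was called higher (0.93 ± 0.44, limma adjusted p = 0.0104), but not without C1 (0.0537), with no filter (0.0546), with the non-mitochondrial total (0.0706), after quantile normalization (0.134) or with C2 alone (0.490). The numbers were 5 higher and 5 lower without C2, and 1 higher without C1. Of 20 cholesterol genes 4 were called higher and 0 lower, 20.0% higher beside 34.7% of all genes, and without HMGCS1 and SQLE 4 and 0 of 18. At an unadjusted p under 0.05 there were 5 and 2 of the 20, and 4485 of all 9411 genes in either direction. MVD rose by 2.53 ± 0.51 (limma adjusted p = 0.000336, 0.0543 with C2 alone) and DHCR7, a reductase of the end of the pathway, by 1.74 ± 0.44 (limma adjusted p = 0.000814, 0.0811 with C2 alone). Without C2 the number was 7 higher. It was 1 lower without A1 or A3 or C1, and 2 lower without H3. Quantile normalization gave 2 higher and 4 lower, beside 1276 and 1373 of all 9411 genes.

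Storage and breakdown genes were among those called higher in vitrification II than in vitrification I. Of 23 triglyceride and droplet genes 13 were called higher and 0 lower, 56.5% beside 34.7% of all genes. At an unadjusted p under 0.05 there were 4485 of all 9411 genes in either direction, and 14 higher and 0 lower of the 23. After quantile normalization 5 were higher and 2 lower, with the non-mitochondrial total 6 and 1, and with C2 alone 3 were higher. Of the 13, LIPE, MGLL and AGPAT1 passed the filter only through vitrification II, which leaves 10. GPAT4 rose by 1.97 ± 0.38 (limma adjusted p = 0.000164), under all 18 alternatives. SLC27A4, a fatty acid transport protein, rose by 1.97 ± 0.54 (limma adjusted p = 0.00169, 0.0631 with C2 alone), 1 of 3 activation and uptake genes called higher of 13, with ACSL6 lower. The share higher was 23.1% beside 34.7% of all genes, and without ACSL1 2 of 12 were higher and 1 lower. The number higher was 5 without C2, and ACSL6 was not called without C1, C3, H1, H2 or H3. Of 17 regulators 6 were higher (PPARD and PPARG past the filter only through vitrification II) and 1 lower, 35.3% and 5.88% beside 34.7% and 3.75% of all genes. MLX, the partner of carbohydrate-response factors, was at 1.90 ± 0.46 (limma adjusted p = 0.00069). The number of regulators higher was 3 without C1 or H3, and the 1 lower, INSIG2, was not called without C3, H1, H2 or H3. Peroxisomal genes called higher were 36.4% beside 34.7% of all genes. Of 11 peroxisomal genes 4 were higher, CRAT and ACAA1 among them and DECR2 past the filter only through vitrification II, and 1 after quantile normalization or with C2 alone.

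In the vitrification group none of the 7 lists had a gene called by limma against fresh control. At an unadjusted p under 0.05 in limma there were 1709 of all 9411 genes, in either direction. Among the lists there were 3 of 20 synthesis, 3 of 13 activation, 4 of 20 cholesterol and 2 of 17 regulator genes, all higher. There were also 1 of 20 oxidation genes, lower, 5 droplet genes higher and 1 lower of 23, and 0 of 11 peroxisomal genes. SREBF2 lay 1.58 ± 0.54 higher (limma adjusted p = 0.0965), PLIN2 1.17 ± 0.35 lower (limma adjusted p = 0.144) and ACSL3 0.92 ± 0.43 higher (limma adjusted p = 0.172). The synthesis list had 1 gene called without C3 or H1 or H3, the cholesterol list 1 without C2, and the droplet list 1 without C1 or C3. With 2 libraries this group gives the least precise means.

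**Figure D4:**
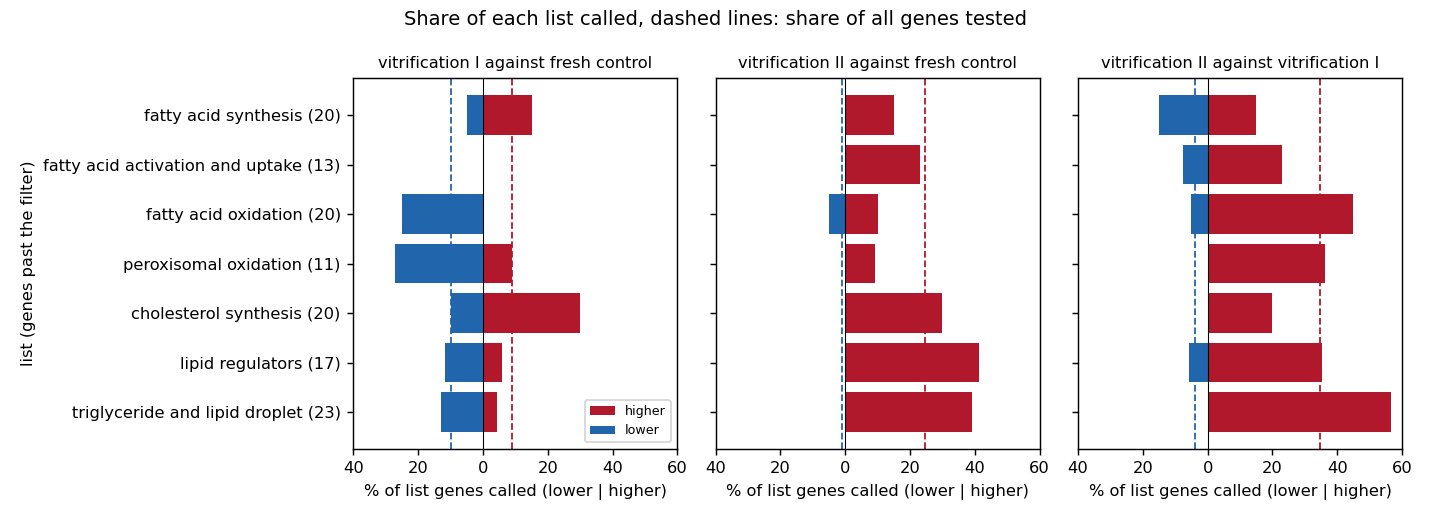
Percentage of the genes of each list past the filter (number in brackets) called higher (right of 0) or lower (left of 0) by limma at an adjusted p under 0.05 in 3 comparisons, the 8 genes included. Dashed lines give the share of all 9411 genes called in that direction. In vitrification I 25.0% of oxidation genes were called lower beside 9.77% of all genes, and in vitrification II 30.0% of cholesterol genes higher beside 24.6%. Both shares include genes chosen on these contrasts. Without the 8 genes 3 of 18 oxidation genes were lower and 4 of 18 cholesterol genes higher, so no excess is read from the shares shown.

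Over the 11 libraries, the genes whose log2(FPKM + 1) was most like that of each of the 8 were found by Pearson's r among genes with a symbol, as a description. MID1IP1 was most like CALCRL, JDP2 and SNX18 (r = 0.96, 0.95 and 0.95), and SCD most like KLF5, VPS54 and ARHGEF5 (0.97, 0.96 and 0.95). JDP2, a transcription factor of the AP-1 family, had means of 7.96, 15.2, 95.9 and 23.1 in groups A, B, C and H. KLF5, a transcription factor of the trophectoderm and other epithelia, had 27.5, 78.5, 129.8 and 50.2. ACLY was most like STARD4, HSPH1 and ACO1 (0.97, 0.96 and 0.94). HMGCS1 was most like ACO1 and STARD4 (0.94 and 0.92), both of which ACLY shared. ACSL1 was most like DDB1, RAB39A and SP2 (0.98, 0.98 and 0.97), and SQLE most like FLVCR1, GGH and ZNRF2 (0.96, 0.93 and 0.92). ACADVL was most like COQ4, DDX49 and TRMT1 (0.99, 0.98 and 0.98), of which COQ4 takes part in coenzyme Q synthesis. ACADS was most like SUPT4H1, MRPL54 and GPX1 (0.95, 0.94 and 0.94). None of the genes most like ACADVL or ACADS belonged to the oxidation list.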

How the data were processed

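The authors deposited FPKM values of 31781 Ensembl pig genes in 11 libraries. Per the submitters' processing notes the tools were FastQC, TopHat2 2.0.13, Cufflinks 2.2.1 and DESeq2, with no roles given, and the genome build is not given in the sources used here, so no positions are printed. Symbols were matched by gene identifier for 15347 genes. Read counts could not be recovered, so depth and counting error are unknown.

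Values were analysed as log2(FPKM + 1), keeping genes that had an FPKM of 1 or more in 3 or more libraries. limma 3.58.1 in R 4.3.3 fitted 1 mean per group over all 11 libraries with a trended prior, and 4 comparisons were tested, two-sided, with Benjamini-Hochberg adjustment over all 9411 genes. The code was tested on simulated data. A gene with fewer than 3 libraries at that level outside the group where it is higher passed the filter only through that group, and its call is not read. The p-values measure the spread between these libraries only, which may be technical.

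The 8 genes and the 7 pathway lists were chosen with earlier results of these data known. Named genes are the 8, up to 4 called genes with the largest difference per list and comparison (the examples printed are mostly those whose calls moved least), a set of partner enzymes, and the 3 genes most like each of the 8. THRSP, HACD2, ACAD9, ETFA and the genes named for passing the filter through 1 group fall outside that rule and were chosen after their values were seen. Alternatives were a pseudocount of 0.1, no filter, scaling to the non-mitochondrial total, quantile normalization, a replicate block, fits of the compared groups only, leaving out each library, and, added after seeing the data, vitrification I represented by C2 alone. Single results for some genes of the lists are not reported here, though list counts include these genes.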

Additional observations from a re-analysis of the deposited data

How the results depend on the processing

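Of 32 differences of the 8 genes 27 kept their sign under every alternative run. The 5 that did not were fitted at 0.57 or nearer to 0: HMGCS1 in vitrification II against vitrification I (0.57, from -0.38 to 1.04), MID1IP1 (0.43, from -0.03 to 0.73) and ACADS (-0.21, from -0.53 to 0.10) in vitrification, and ACADVL (0.01, from -0.44 to 0.29) and ACADS (-0.08, from -0.89 to 0.03) in vitrification II against fresh control. Of 560 differences of these genes under an alternative, 534 stayed within 1 SD of the value reported and 26 moved further, and of 292 other results under an alternative 227 were kept. Part of the alternatives could not move a difference. No filter, a fit of the compared groups only and leaving out a library of another group keep both group means as they were. So does the replicate block where both groups have 3 libraries. The tallies of signs kept and of differences within 1 SD include these fixed values. The mean synthesis minus oxidation level of each group, over ACLY, MID1IP1, SCD, ACADVL and ACADS, stayed within its SD with a pseudocount of 0.1, the non-mitochondrial total and quantile normalization. The counts of called genes moved more, and the cause was not tested. With 2 or 3 libraries a group and no counts in the table, the precision of low levels such as those of ACADS in vitrification I is not known.

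In vitrification against fresh control 129 genes were called, 68 with a pseudocount of 0.1, 656 with no filter, 55 with the replicate block, 0 in a fit of the 2 groups compared (1862 at an unadjusted p under 0.05 in limma) and 0 to 207 with a library left out. The synthesis count of 0 became 1 with the non-mitochondrial total, 1 with the replicate block and 0 to 1 with a library left out. The cholesterol count of 0 became 1 with the non-mitochondrial total and 0 to 1 with a library left out.

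In vitrification I against fresh control 1752 genes were called, 906 with no filter, 242 with C2 alone, an alternative chosen after seeing the data, and 832 to 2029 with a library left out. The synthesis count of 4 was 2 with no filter and 8 with the non-mitochondrial total. The oxidation count of 5 was 3 with no filter, 3 in a fit of these groups, 2 with C2 alone and 3 to 5 with a library left out. The cholesterol count of 8 was 4 with no filter, 4 with C2 alone and 5 to 10 with a library left out.

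In vitrification II against fresh control 2422 genes were called, 1419 with no filter, 1306 with the non-mitochondrial total, 676 after quantile normalization and 1017 to 2715 with a library left out. The synthesis count of 3 was 1 with no filter, 6 in a fit of these groups and 1 to 5 with a library left out. The oxidation count of 3 was 1 with no filter, 1 after quantile normalization and 0 to 3 with a library left out. The cholesterol count of 6 was 3 with no filter, 3 with the non-mitochondrial total, 3 after quantile normalization and 3 to 7 with a library left out.

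In vitrification II against vitrification I 3614 genes were called, 2263 with the non-mitochondrial total and 785 with C2 alone. The synthesis count of 6 was 3 with no filter, 1 with C2 alone and 4 to 10 with a library left out. The oxidation count of 10 was 6 after quantile normalization and 4 with C2 alone. The cholesterol count of 4 was 1 with C2 alone and 3 to 7 with a library left out.

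Groups share replicate numbers in the labels. Over 15 pairs with the same number the correlation of deviations from the group means ran from -0.158 to 0.143, and 2 were over 0.1. Over 30 pairs with unlike numbers it ran from -0.136 to 0.158, and 4 were over 0.1. With 2 or 3 libraries a group such deviations are tied to one another, so these values cannot decide whether the numbers pair the libraries. With the replicate block 55, 1603, 2203 and 3485 genes were called in the 4 comparisons, against 129, 1752, 2422 and 3614 without it.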
